A study of Mus musculus with 3 samples.

Results

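Interferon-stimulated genes were followed in murine leukemia driven by TBLR1-RARα (TR), with 44 genes taken from a fixed list of names, 44 of the 16742 genes listed in any library. The rule takes genes by name, as known targets of interferon signalling, and sets no threshold on their values. Earlier results of these data were known when the 44 were chosen, so their shares are a description and not an independent check. All 44 were listed in at least 1 library, and 41 had more than 3 expected counts in each of the 3 libraries. RNA-seq was available for 1 library per condition, each from bone marrow (BM) cells pooled from 3 mice of 6 to 8 weeks of age. The control library held lin- cells of wild-type C57BL/6 mice, which are the cells left after those with mature lineage markers have been depleted. The TR1 and TR9 libraries held GFP+ cells sorted from BM of third-generation TR leukemia mice, passed on from primary mouse no. 1 and primary mouse no. 9. In these mice lin- C57BL/6 cells had been transduced with a retrovirus that carries TR and GFP in 1 transcript, so that GFP marks cells of the transduced line. TR1 and TR9 thus each stand for 1 primary leukemia, and the leukemia and the way its cells were isolated cannot be told apart in any comparison with control, since control cells were neither transduced nor sorted for GFP.

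Interferons are secreted cytokines, and type I, type II and type III ligands each bind their own receptor pair on the cell surface. The receptors work through the kinases Jak1, Jak2 and Tyk2 on STAT proteins, with Stat2 and Irf9 in a complex that binds the interferon-stimulated response element (ISRE), and STAT pairs binding the gamma-activated site (GAS). The genes so driven code for proteins that sense or degrade foreign RNA, block entry and release of viruses, attach Isg15 to other proteins or attack the vacuoles of intracellular microbes, and many are expressed in blood progenitors at rest. Pml, 1 of the 44, is known also as the usual fusion partner of RARα in acute promyelocytic leukemia.

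Because the ISRE and GAS are short sequences near the transcription start, promoters were read for members that show how the list varies: a pair of near-identical Oas genes, the Ifitm genes, a pair of Gbp genes whose values differed in TR1, and Ifit1 and Isg15 as textbook targets. Each line gives the 120 bases before the start in the RefSeq promoter table (GRCm38.p6), 5′ to 3′ on the strand of the gene, with capitals for a match to the ISRE core (GAAA, any 2 bases, GAAA) or to the GAS (TTCNNNGAA) on either strand. Where matches overlap, they form 1 run of capitals. Gbp3 has 2 windows in the table and 1 is shown.
Ifit1 (chr19:34640769-34640888, plus strand): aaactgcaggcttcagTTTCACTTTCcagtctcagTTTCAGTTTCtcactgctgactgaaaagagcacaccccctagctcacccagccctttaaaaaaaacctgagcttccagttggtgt
Isg15 (chr4:156200819-156200938, minus strand): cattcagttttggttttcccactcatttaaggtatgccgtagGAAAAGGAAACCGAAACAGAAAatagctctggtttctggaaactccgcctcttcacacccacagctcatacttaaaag
Oas1a (chr5:120907526-120907645, minus strand): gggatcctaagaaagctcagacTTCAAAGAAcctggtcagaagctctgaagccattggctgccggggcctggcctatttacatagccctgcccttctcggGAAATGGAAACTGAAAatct
Oas1g (chr5:120887614-120887733, minus strand): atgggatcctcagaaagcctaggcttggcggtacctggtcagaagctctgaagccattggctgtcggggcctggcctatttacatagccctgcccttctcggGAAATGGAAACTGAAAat
Ifitm1 (chr7:140967956-140968075, plus strand): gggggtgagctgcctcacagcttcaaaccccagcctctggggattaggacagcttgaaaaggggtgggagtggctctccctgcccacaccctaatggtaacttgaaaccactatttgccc
Ifitm2 (chr7:140955962-140956081, minus strand): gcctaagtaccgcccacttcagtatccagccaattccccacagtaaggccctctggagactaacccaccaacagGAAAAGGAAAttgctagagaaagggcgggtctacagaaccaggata
Ifitm3 (chr7:141010745-141010864, minus strand): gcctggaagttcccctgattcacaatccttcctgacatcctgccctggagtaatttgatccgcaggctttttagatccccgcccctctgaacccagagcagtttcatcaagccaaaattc
Ifitm6 (chr7:141016893-141017012, minus strand): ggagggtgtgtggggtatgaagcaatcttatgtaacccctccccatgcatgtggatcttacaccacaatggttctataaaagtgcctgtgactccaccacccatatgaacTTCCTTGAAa
Gbp3 (chr3:142559924-142560043, plus strand): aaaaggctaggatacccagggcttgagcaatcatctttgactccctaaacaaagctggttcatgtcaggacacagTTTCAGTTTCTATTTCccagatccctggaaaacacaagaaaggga
Gbp7 (chr3:142530216-142530335, plus strand): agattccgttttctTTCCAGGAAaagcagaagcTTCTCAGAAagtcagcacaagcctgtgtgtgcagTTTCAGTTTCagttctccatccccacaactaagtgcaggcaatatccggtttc
In the Isg15 stretch, 3 overlapping ISRE core matches begin 78 bases before the start. Oas1a and Oas1g both carry 2 overlapping cores within 20 bases of the start, and over 118 aligned bases the pair is identical at 108 (91.5%). The GAS of Oas1a, 98 bases before the start, has no match in Oas1g. Ifitm1 has no match in its window, Ifitm2 has 1 ISRE core, and Ifitm6 has 1 GAS and no ISRE core. In Ifitm3, 2 ISRE cores and 1 GAS lie between the start and 50 bases after it, outside the stretch shown. Gbp7 has 2 GAS matches and 1 ISRE core, while Gbp3 has 2 overlapping cores and no GAS.

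Over windows from 250 bases before to 50 bases after the start, 36 of the 44 members matched a RefSeq entry, and Mx2, Oas2, Usp18, Rtp4, Zbp1, Parp9, Parp14 and Iigp1 did not. The ISRE core was found in 19 of the 36 (52.8%), against 3.99% of 27025 genes in the table and 3.73% of the 13015 that were listed in these libraries. The GAS was found in 12 of the 36 (33.3%), against 9.55% of all genes in the table and 8.41% of those listed. A match is a description of the letters, and no match says only that they are not in this window.

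Expected counts, the read numbers that RSEM assigns to each gene, gave library totals of 5488778 for control, 5571409 for TR1 and 5129662 for TR9. Levels are given as FPKM, which scale counts by gene length and by the library total. Expected counts were whole in all 3 libraries for 21 members and divided with other genes in at least 1 library for 23, among them Ifit1, Oas1a, Oas1g, Ifitm1, Ifitm2, Ifitm3, Gbp3 and Ifi47, whose values are uncertain to that extent. Rara, 1 side of the fusion, was listed at 3.36, 66.1 and 22.0 FPKM in control, TR1 and TR9, and Tbl1xr1 at 18.9, 25.8 and 23.2. Cell type markers moved with the libraries. The 10 late granulocyte markers came to 105, 23192 and 8957 FPKM in control, TR1 and TR9, the 6 promyelocyte markers to 4325, 21307 and 23763, and the 8 erythroid markers to 2094, 6.83 and 11.7. The 8 monocyte and macrophage markers came to 189, 590 and 331 FPKM, of which F13a1, named after its values were seen, made 98.8, 543 and 301. The other 7 came to 90.0, 47.2 and 29.4 FPKM, and of the 8, 3 were called higher and 3 lower in TR1, and 1 higher and 4 lower in TR9. In the pooled RNA, fewer cells of a type and less RNA per cell cannot be told apart. The part of these markers in the results on interferon-stimulated genes was not tested.

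Members took a larger share of the RNA in the leukemia libraries. Their expected counts made up 0.172% of the control library, 0.299% of TR1 and 0.321% of TR9. Summed FPKM was 858, 2534 and 1857 in the same order, and 422, 2052 and 1144 of these came from the 5 membrane proteins Ifitm1, Ifitm2, Ifitm3, Ifitm6 and Bst2. The median member stood at 10.1, 11.3 and 18.0 FPKM in control, TR1 and TR9, while the median over all listed genes was 7.55, 7.25 and 7.95. In the plot of levels by library, Ifitm2 is the highest member in each library, at 243, 859 and 565 FPKM.

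**Figure D1:**
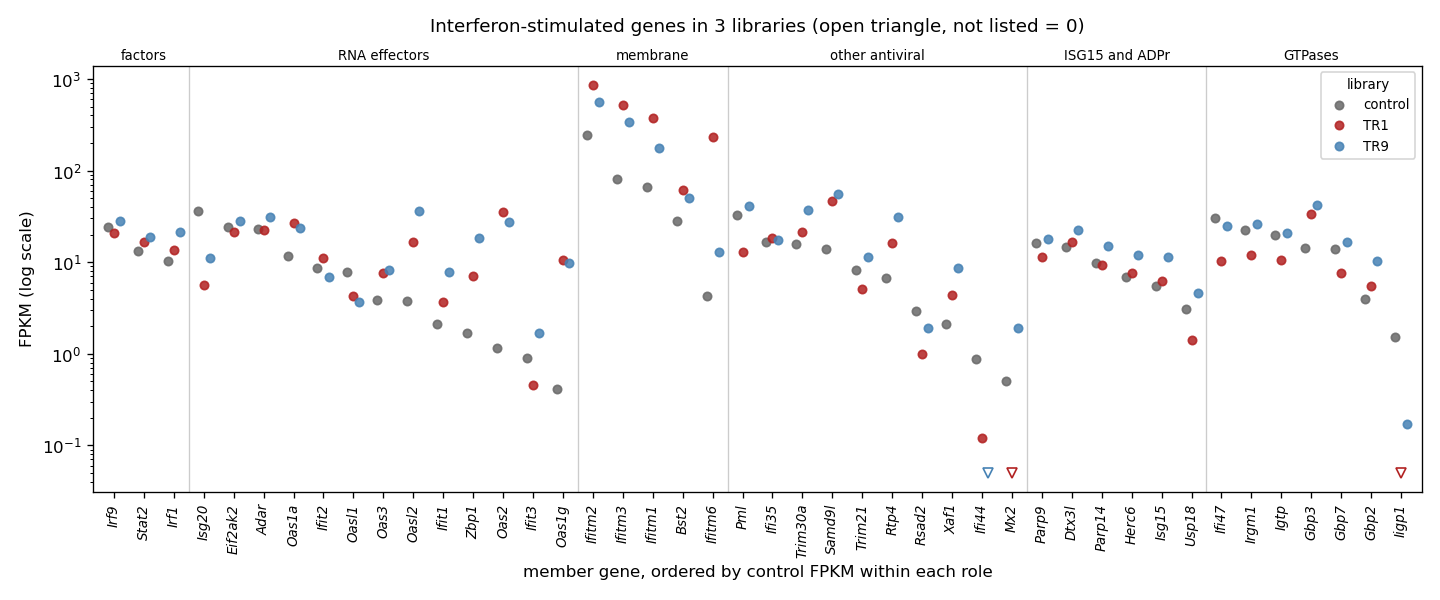
FPKM (log axis) of the 44 interferon-stimulated genes in the control, TR1 and TR9 libraries, grouped by role, with 1 point per library and no error bar, since each condition has 1 library, and open triangles for 0. Ifitm1, Ifitm2 and Ifitm3 lie highest in all 3 libraries, and Mx2 and Iigp1 in TR1 and Ifi44 in TR9 are at 0.

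To see which members differed from lin- cells, each leukemia library was set against control. A gene was called where its FPKM differed by a log2 ratio of 1 or more in size and a Poisson test of its expected counts passed a false discovery rate of 0.001. Since each condition has 1 library, the test sets the reads of 1 library against those of another and says nothing of the spread between mice. Each log2 ratio is followed by its 95% exact interval, which covers counting error only. In TR1, 13 of 44 members (29.5%) were called higher and 5 (11.4%) lower, while 8.09% of all 16282 genes tested were called higher and 13% lower. The share of members called lower was thus near that of all genes. The median log2 ratio was 0.17 for the members and −0.29 for all genes. In TR9, 17 members (38.6%) were called higher and 4 (9.09%) lower, against 9.37% and 10.8% of 16303 genes, and the median was 0.83 for the members and −0.12 for all genes. Ratios were above 0 for 25 of the 44 members in TR1 and for 37 in TR9, against 6033 of 16282 and 7331 of 16303 genes.

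Scaling matters for these medians. TMM scaling, which centres the bulk of genes, moves all log2 ratios of TR1 against control up by 0.25 and those of TR9 against control up by 0.11, and the calls over all genes then became 10.4% higher and 9.77% lower in TR1 and 10.5% and 9.22% in TR9. With it, 15 members were called higher and 5 lower in TR1, and 18 and 3 in TR9. Scaling FPKM to a common sum, as TPM, put the TR1 median of the members at −0.057, against 0.17, so its direction depended on the scaling. With edgeR's exact test at an assumed biological variation of 0.2, 9 members were higher and 2 lower in TR1, and 8 were higher and 0 lower in TR9. With this test TR9 thus no longer had more members called higher than TR1. The share of all genes called with this test was not taken, so these counts cannot be set against it.

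**Figure D2:**
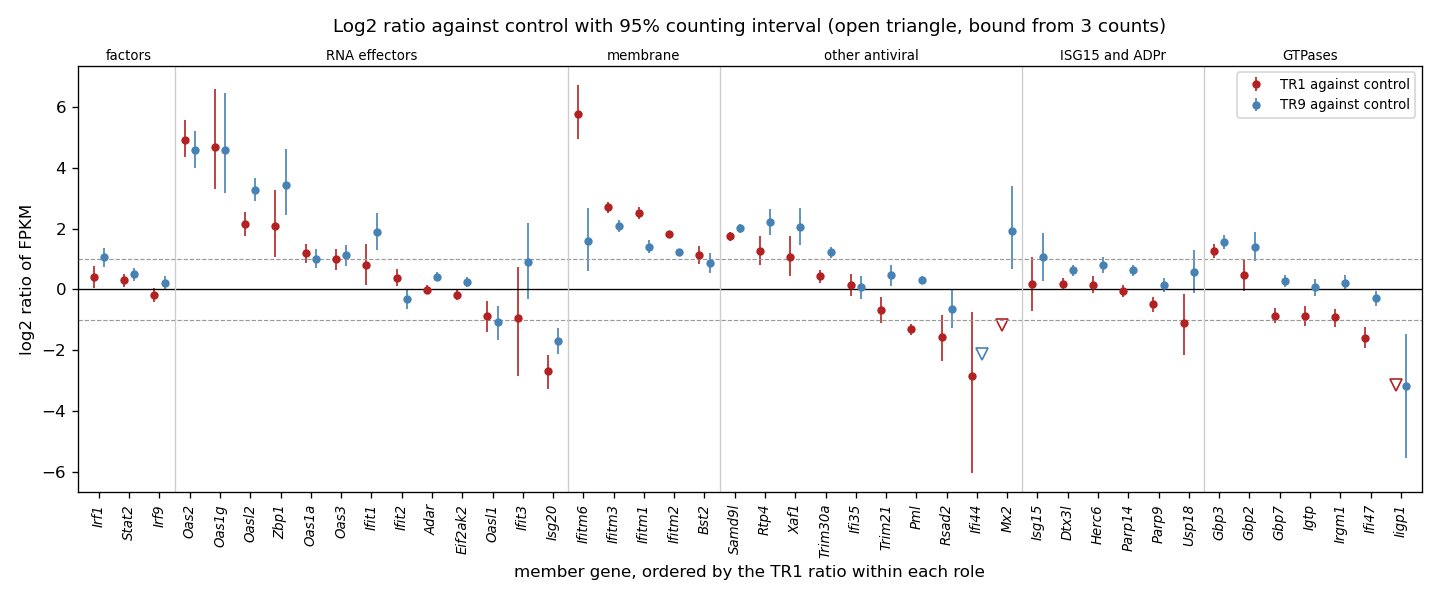
Log2 ratio of FPKM of each member in TR1 against control and in TR9 against control, grouped by role, with 95% exact intervals for counting error only, dashed lines at the fold threshold and open triangles for bounds of genes at 0. The 5 membrane proteins are above 0 in TR1 and TR9, while Isg20, Rsad2, Oasl1 and Iigp1 are below 0 in both.

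Among the 13 RNA sensors and RNA-acting effectors, 5 (38.5%) were called higher and 1 (7.69%) lower in TR1. In TR9, 7 (53.8%) were higher and 2 (15.4%) lower, and the medians were 0.80 in TR1 and 1.01 in TR9. Over all genes, 8.09% were called higher and 13% lower in TR1, and 9.37% and 10.8% in TR9. The lower shares of this group, from 1 and 2 genes, were near those of all genes. The Oas genes code for synthetases whose 2′-5′ linked adenylate chains switch on RNase L. Oas2 had 25, 773 and 557 counts in control, TR1 and TR9 (1.17, 35.5 and 27.8 FPKM). Control held little of it, and it was 30.3-fold higher in TR1 (log2 ratio 4.92, interval 4.35 to 5.56) and 23.8-fold higher in TR9 (4.57, 3.99 to 5.21). Oas1g had 4.48, 117 and 99.5 counts in control, TR1 and TR9 (0.41, 10.6 and 9.74 FPKM). Its ratios, 4.69 (3.29 to 6.59) in TR1 and 4.57 (3.17 to 6.47) in TR9, rest on few control counts, as the wide intervals show. Oas1a, the neighbour whose promoter letters are nearly the same, had 11.7, 26.6 and 23.6 FPKM, with log2 ratios of 1.19 (0.87 to 1.5) and 1.01 (0.69 to 1.34). As a ratio, the pair thus differed most in control, with 0.41 FPKM for Oas1g and 11.7 for Oas1a, and the expected counts of both genes were not whole. Oas3 had 3.84, 7.59 and 8.32 FPKM and was called in TR9 (1.12, 0.76 to 1.48). In TR1 its ratio of 0.98 (0.63 to 1.34) was just under the threshold, and it passed with TMM scaling, at 1.23.

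Oasl2 and Oasl1, relatives of the Oas genes, went different ways in TR9. Oasl2, an active synthetase in the mouse, had 65, 291 and 591 counts in control, TR1 and TR9 (3.76, 16.5 and 36.5 FPKM), and log2 ratios of 2.14 (1.74 to 2.55) and 3.28 (2.91 to 3.67). Oasl1, known as a brake on Irf7 translation, had 91, 50 and 40 counts (7.81, 4.22 and 3.67 FPKM). It was below control in both leukemia libraries and was called lower in TR9 (−1.09, −1.66 to −0.54), a call that TMM scaling ended at −0.98.

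Zbp1, a sensor of Z-form nucleic acid that can set off necroptosis, had 9, 55 and 112 counts in control, TR1 and TR9 (1.68, 7.10 and 18.2 FPKM). The rise was called in TR1 (log2 ratio 2.08, 1.05 to 3.28) and in TR9 (3.44, 2.46 to 4.6), on a gene length that RSEM set differently in each library. Ifit1, which binds RNA with foreign 5′ ends, had 2.13, 3.71 and 7.85 FPKM and was called in TR9 alone (1.88, 1.29 to 2.51), with 0.80 (0.14 to 1.48) in TR1. Ifit2 had 8.61, 11.3 and 6.95 FPKM and Ifit3 0.89, 0.46 and 1.67, and neither was called against control. None of the 3 Ifit genes was thus called in TR1. Isg20, an exonuclease of single-stranded RNA, had 195, 33 and 62 counts in control, TR1 and TR9 (36.4, 5.66 and 11.2 FPKM). It was the highest of these 13 genes in control and was called lower in TR1 (−2.69, −3.26 to −2.15) and in TR9 (−1.70, −2.14 to −1.28). Eif2ak2, the RNA-activated kinase PKR, had 24.2, 21.4 and 28.4 FPKM, and Adar, which edits adenosine in double-stranded RNA, had 23.0, 22.7 and 30.8. The intervals of both lay between −0.35 and 0.56, so a difference of the size of the threshold was outside the counting error.

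The membrane restriction factors had the largest sums. Ifitm proteins sit in cell membranes and hinder viral entry, and Bst2 (tetherin) holds budding virus at the surface. All 5 were called higher in TR1, with a median log2 ratio of 2.52, and 3 (60%) in TR9, with a median of 1.40. Over all genes, 8.09% were called higher in TR1 and 9.37% in TR9. Ifitm3 had 274, 1814 and 1090 counts in control, TR1 and TR9 (80.3, 522 and 341 FPKM), with log2 ratios of 2.70 (2.52 to 2.89) and 2.09 (1.89 to 2.28). Ifitm1 had 66.3, 380 and 175 FPKM, with ratios of 2.52 (2.32 to 2.72) and 1.40 (1.18 to 1.62). Ifitm2 had ratios of 1.82 (1.71 to 1.93) and 1.22 (1.1 to 1.34). For these 3 genes TR1 was highest and control lowest. Ifitm6 had 12, 662 and 34 counts in control, TR1 and TR9 (4.26, 231 and 12.9 FPKM). It stood apart in TR1, 54.2-fold above control (5.76, 4.95 to 6.72), while the TR9 ratio of 1.60 (0.61 to 2.68) was not called, though it passed with TMM scaling, at 1.70. Bst2 had 27.9, 60.7 and 50.8 FPKM, with 1.12 (0.82 to 1.43) in TR1 and 0.87 (0.55 to 1.19) in TR9. The order TR1, TR9, control held for each of the 5 genes, and the summed late granulocyte markers had the same order. So did the summed monocyte and macrophage markers (590, 331 and 189 FPKM in TR1, TR9 and control), but only through F13a1. Without it, the other 7 came to 47.2, 29.4 and 90.0 FPKM, with control highest. The summed promyelocyte markers did not have that order, at 21307, 23763 and 4325 FPKM. The sum of the 8 T and NK cell markers also had that order, at 197, 158 and 100 FPKM in TR1, TR9 and control. In each library only 1 of the 8 reached 10 FPKM, so the sum rests on few genes. The median of the 8 was 0.16, 0.165 and 0.68 FPKM, with control highest. Against control, 5 of the 8 ratios were below 0 in TR1 and 5 in TR9. All 10 late granulocyte markers were called higher in TR1 than in control, and 7 in TR9. In TR9 against TR1, 6 of the 10 were called lower and 2 higher. The part of any of these markers in the Ifitm values was not tested. Plasmacytoid dendritic cells are known for high Bst2, and their 8 markers summed to 13.5, 5.33 and 8.42 FPKM in control, TR1 and TR9. Of these sums, Tcf4, named after its values were seen, made 8.73, 3.31 and 7.64 FPKM, the larger part in each library. Klk1 was at 0 in all 3 libraries, Siglech and Ly6d at 0 in TR1, and Ccr9 and Ly6d at 0 in TR9.

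Of the 10 other antiviral effectors, 2 (20%) were called higher and 2 (20%) lower in TR1, beside 8.09% and 13% of all genes. In TR9, 4 (40%) were higher and 1 (10%) lower, beside 9.37% and 10.8%, so the lower share was near that of all genes. The medians were −0.26 in TR1 and 0.84 in TR9. Samd9l, a brake on the growth of myeloid cells, had 412, 1401 and 1546 counts in control, TR1 and TR9 (13.9, 46.5 and 55.8 FPKM). Its log2 ratios were 1.74 (1.58 to 1.90) and 2.0 (1.85 to 2.16). Rtp4, a receptor-transporting protein, had 57, 140 and 247 counts (6.65, 16.0 and 30.8 FPKM), with ratios of 1.27 (0.82 to 1.74) and 2.21 (1.79 to 2.65). Both genes were called in each leukemia library. Xaf1, which opposes the apoptosis inhibitor Xiap, had 2.10, 4.41 and 8.72 FPKM and was called in TR9 (2.05, 1.47 to 2.68). In TR1 its ratio of 1.07 (0.43 to 1.75) missed the false discovery rate, and it passed with TMM scaling, at 1.32. Trim30a, a ubiquitin ligase known to restrain Toll-like receptor signalling, had 15.8, 21.3 and 36.8 FPKM and was called in TR9 (1.22, 1.03 to 1.41).

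Pml, the scaffold of nuclear bodies, had 965, 392 and 1128 counts in control, TR1 and TR9 (32.6, 13.1 and 40.6 FPKM). It was 2.49-fold lower in TR1 (−1.32, −1.49 to −1.15) and above control by less than the threshold in TR9 (0.32, 0.19 to 0.44). Rsad2 (viperin), which makes a chain-terminating nucleotide, had 62, 21 and 37 counts and was called lower in TR1 (−1.58, −2.37 to −0.85). Trim21, the cytosolic antibody receptor, had 8.18, 5.14 and 11.3 FPKM, and Ifi35 had 16.5, 18.2 and 17.4, with neither called. The rarest members were near the limit of the depth. Mx2, a dynamin-like GTPase, had 6.69, 0 and 23.9 counts in control, TR1 and TR9, and was called in neither comparison with control. Ifi44 had 14.1, 2 and 0 counts, with 1 call, at least 4.38-fold lower in TR9, set against 3 counts.

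The ISG15 system and the ADP-ribosylation genes grouped with it had no call against control. None of the 6 passed in TR1 or TR9, and medians were 0.04 and 0.63. Over all genes, 8.09% were called higher and 13% lower in TR1, and 9.37% and 10.8% in TR9. Isg15, a ubiquitin-like protein attached to others, had 22.1, 25.2 and 42.8 counts in control, TR1 and TR9 (5.49, 6.18 and 11.4 FPKM). Its TR9 ratio of 1.05 (0.28 to 1.86) passed the fold and missed the false discovery rate. Usp18, which removes Isg15 and damps the type I receptor, had 30, 14 and 42 counts, with ratios of −1.12 (−2.15 to −0.16) and 0.58 (−0.13 to 1.31). Herc6, the ligase for Isg15 in the mouse, had 6.87, 7.62 and 11.9 FPKM. Parp9 and its partner Dtx3l had 16.1, 11.4 and 17.9 FPKM and 14.6, 16.4 and 22.6 FPKM, and Parp14 had 9.81, 9.40 and 15.2. All 6 had a ratio above 0 in TR9, with the highest value of each gene in that library.

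The interferon-inducible GTPases, which gather on vacuoles of intracellular microbes, had 5 of 7 ratios below 0 in TR1. There, 1 (14.3%) was called higher and 2 (28.6%) lower, with a median of −0.89, beside 8.09% and 13% of all genes. In TR9, 2 (28.6%) were higher and 1 (14.3%) lower, with a median of 0.22, beside 9.37% and 10.8% of all genes. These shares rest on 1 or 2 genes each. Gbp3 had 207, 502 and 572 counts in control, TR1 and TR9 (14.2, 34.0 and 42.1 FPKM) and was called higher in both (1.25, 1.02 to 1.5, and 1.57, 1.33 to 1.80). Gbp2 had 3.97, 5.5 and 10.4 FPKM and was called in TR9 (1.39, 0.92 to 1.87). Their relative Gbp7 had 13.8, 7.58 and 16.7 FPKM, the lowest value being in TR1 (−0.86, −1.1 to −0.63). Irgm1, a regulator of the other immunity-related GTPases, had 22.6, 11.9 and 26.3 FPKM, and Igtp had 19.7, 10.7 and 20.7. In TR1 both were below control by less than the threshold, at −0.92 (−1.22 to −0.63) and −0.89 (−1.22 to −0.56), and in TR9 they were near control, at 0.22 and 0.07. Ifi47 had 30.7, 10.2 and 25.1 FPKM and was called lower in TR1 (−1.58, −1.93 to −1.25). Iigp1, an effector of the same family, had 26, 0 and 2.62 counts in control, TR1 and TR9. It was called lower in each, at least 8.80-fold in TR1, set against 3 counts, and 9.0-fold in TR9 (−3.17, −5.54 to −1.46).

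Of the 3 transcription factors of the list, none was called in TR1 and 1 was called higher in TR9. Over all genes, 8.09% were called higher and 13% lower in TR1, and 9.37% and 10.8% in TR9. Irf9 had 24.0, 21.0 and 27.9 FPKM in control, TR1 and TR9, and Stat2 had 13.3, 16.4 and 18.8, with no call. Irf1, a factor induced by interferon-gamma through a GAS, had 10.4, 13.7 and 21.5 FPKM and was called in TR9 (1.05, 0.73 to 1.38). All 3 were highest in TR9.

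To ask where the 2 leukemias differed, TR9 was set directly against TR1. In TR9, 10 members (22.7%) were higher and 2 (4.55%) lower than in TR1, against 4.34% and 2.31% of 15706 genes, and the median was 0.64 for the members and 0.13 for all genes. Among the 10 was Pml, 3.10-fold higher in TR9 (log2 ratio 1.63, 1.47 to 1.80). Usp18 was 3.25-fold higher (1.70, 0.80 to 2.69), Zbp1 2.56-fold (1.36, 0.88 to 1.85), Ifi47 2.45-fold (1.29, 0.95 to 1.65) and Oasl2 2.21-fold (1.14, 0.94 to 1.35). Irgm1 (1.14, 0.86 to 1.44), Gbp7 (1.14, 0.91 to 1.37), Trim21 (1.13, 0.73 to 1.54) and Ifit1 (1.08, 0.60 to 1.58) were higher by a little more than the threshold. Mx2, at 0 in TR1, was at least 8.63-fold higher in TR9, set against 3 counts. The 2 lower genes were membrane factors, Ifitm1 (−1.12, −1.26 to −0.98) and Ifitm6, which was 17.9-fold lower (−4.16, −4.70 to −3.66).

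By role, all 7 GTPases had ratios above 0 in TR9 against TR1, with a median of 1.14, which becomes 0.96 with genes at 0 set to 3 counts, with Iigp1 at only 2.62 counts against 0, while all 5 membrane factors had ratios below 0, with a median of −0.61. The directions of these groups were thus opposite in the same pair of libraries. Oas1a, Oas1g, Oas2 and Oas3 were not called, with ratios from −0.35 to 0.13. TMM scaling moved the log2 ratios by −0.13, brought the calls over all genes to 3.51% higher and 2.83% lower, and left 7 members higher and 2 lower, with Ifit1 at 0.95, Usp18 at 1.57 and Trim21 just under 1 no longer called. With edgeR's exact test at an assumed biological variation of 0.2, only 1 member was called higher and 1 lower, and the share of all genes was not taken.

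**Figure D3:**
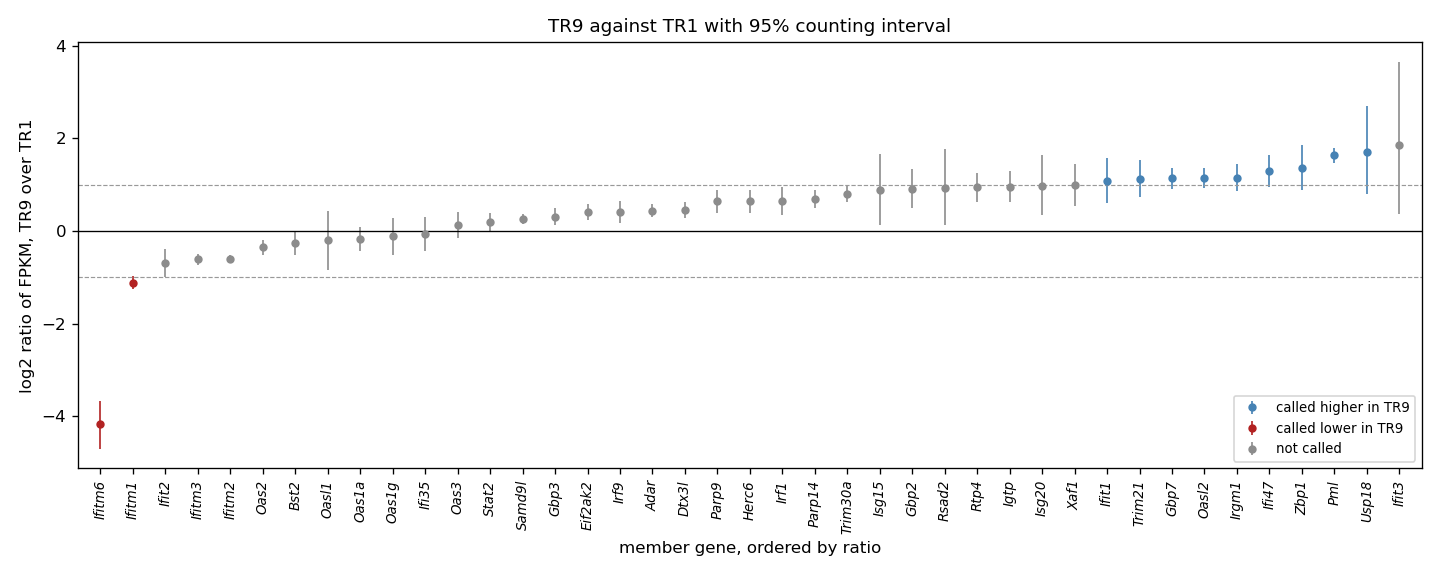
Log2 ratio of FPKM in TR9 against TR1 for the 41 members with counts in both libraries, ordered by ratio, with 95% exact intervals for counting error only, dashed lines at the fold threshold, and colours for called higher, called lower and not called. Ifitm6 lies lowest at −4.16, and the 5 membrane factors are all below 0.

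Calls were also counted by promoter letters, over the 36 members with a RefSeq window. With an ISRE core, 6 of 19 members were called higher and 1 lower in TR1, and 9 higher and 0 lower in TR9. Without it, 4 of 17 were higher and 3 lower in TR1, and 5 higher and 3 lower in TR9. In TR9 against TR1, 4 of the 19 with a core were higher and 0 lower, and 3 of the 17 without it were higher and 2 lower. Over all genes, 8.09% were called higher and 13% lower in TR1, and 9.37% and 10.8% in TR9. In TR9 against TR1 these shares were 4.34% and 2.31%. With so few members in each class, whether calls go with the core was not tested. Isg15, with 3 cores in the stretch shown, was not called in any comparison, and Ifitm1 and Ifitm6, with no core in the window, were called higher in TR1.

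The rest of the pathway was read from lists of ligands, receptors, factors and sensors. Of 21 interferon genes, 20 were at 0 in all 3 libraries, and Ifnz, named after its values were seen, had 2.65 counts in TR1. A count of 0 allows up to 3 counts at this depth, so the RNA of those 20 ligands was not detectable here. Of 9 receptor and kinase genes, 2 were called higher and 1 lower in TR1, with the same numbers in TR9, beside 8.09% and 13% of all genes in TR1 and 9.37% and 10.8% in TR9. Ifnlr1, the specific chain of the type III receptor, had 6, 345 and 326 counts in control, TR1 and TR9 (0.27, 15.3 and 15.7 FPKM), with log2 ratios of 5.82 (4.69 to 7.28) and 5.86 (4.72 to 7.32). Ifngr1, the ligand-binding chain of the interferon-gamma receptor, had 103, 287 and 497 FPKM, with ratios of 1.48 (1.38 to 1.57) and 2.27 (2.18 to 2.36). Both receptor chains were called higher in each leukemia library. Ifngr2, the partner of Ifngr1, had 15.0, 9.87 and 8.55 FPKM, and the type I chains Ifnar1 and Ifnar2 had 15.3, 17.6 and 18.5 FPKM and 50.4, 49.7 and 40.9 FPKM, with no call.

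Jak2 had 45.8, 22.1 and 21.3 FPKM in control, TR1 and TR9, and was called lower in each (−1.05, −1.19 to −0.91, and −1.10, −1.25 to −0.96), although with TMM scaling it passed in neither. Jak1 had 64.8, 48.3 and 62.6 FPKM and Tyk2 17.2, 12.6 and 22.8, with no call. Irf7, which drives interferon genes and is itself interferon-induced, had 9.87, 8.66 and 24.3 FPKM and was called in TR9 (1.30, 0.95 to 1.66) and not in TR1.

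Of the 7 other interferon regulatory factors, none was higher and 3 (42.9%) were lower in TR1, beside 8.09% and 13% of all genes. In TR9, 1 (14.3%) was higher and 2 (28.6%) lower, beside 9.37% and 10.8%, and these shares rest on few genes. Irf8, a factor needed for monocyte and dendritic cell fates, had 1059, 39 and 644 counts in control, TR1 and TR9 (68.0, 2.46 and 44.2 FPKM). It was 4.79 lower on the log2 scale in TR1 (interval −5.29 to −4.33) and was called higher in TR9 than in TR1 (4.17, 3.70 to 4.67). Irf5 had 6.23, 1.14 and 2.38 FPKM and was called lower in each. Irf4 had 16 counts in control and 0 in both leukemia libraries, so that TR1 was at least 5.41-fold and TR9 at least 4.98-fold lower when set against 3 counts. Of the 14 sensors and adaptors, 4 (28.6%) were called higher and 2 (14.3%) lower in TR1, with the same numbers in TR9, and the lower share was near the 13% and 10.8% of all genes. Tlr7, a receptor for single-stranded RNA, had 1.21, 19.2 and 6.71 FPKM, and Ddx58 (RIG-I) had 4.69, 16.0 and 22.5. Ikbke, a kinase downstream of such sensors, had 10.4, 32.3 and 34.1 FPKM. These 3 were called higher in each leukemia library. Mavs, the mitochondrial adaptor through which RIG-I signals, had 14.4, 0.99 and 4.12 FPKM and was called lower in each (−3.86, −4.69 to −3.13, and −1.80, −2.23 to −1.39).

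**Figure D4:**
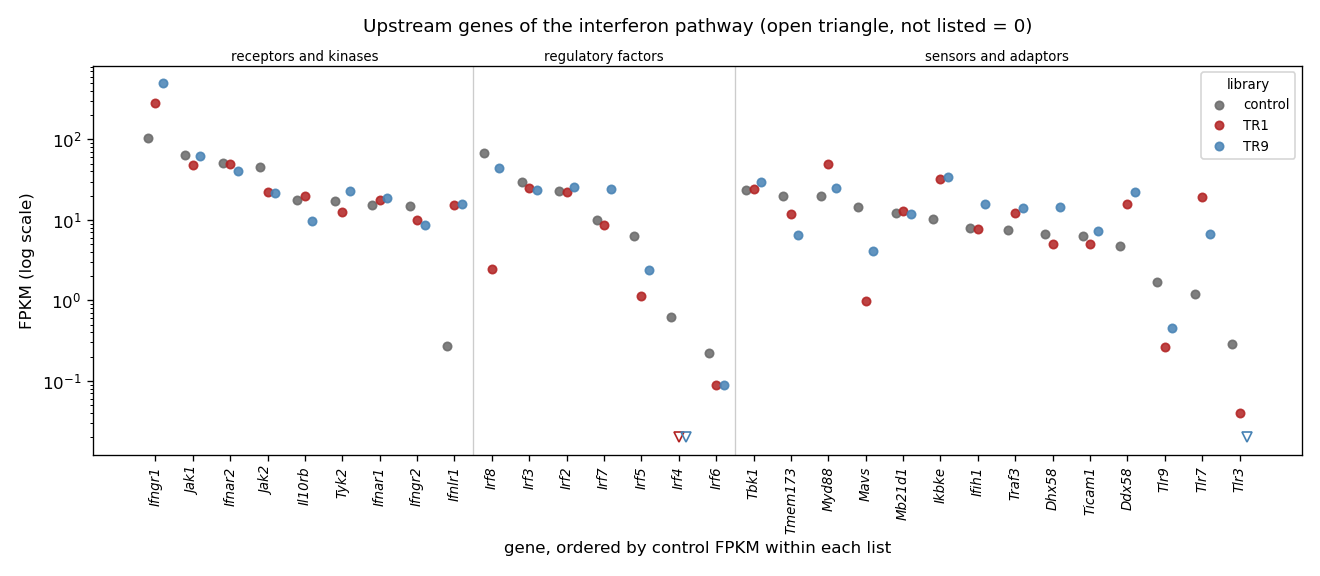
FPKM (log axis) of receptor, kinase, interferon regulatory factor and sensor genes in the control, TR1 and TR9 libraries, with 1 point per library and open triangles for 0. Ifnlr1 and Ifngr1 lie above control in both leukemia libraries, and Irf8 is lowest in TR1.

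A further 86 interferon-stimulated genes, from a list written by hand, were set beside the 44, and 80 of them were listed. The list was chosen with earlier results of these data known, so it is not an independent check. In TR1, 16 of these (20%) were called higher and 8 (10%) lower, with a median of 0.11, and in TR9 25 (31.3%) were higher and 4 (5%) lower, with a median of 0.67. In TR9 against TR1, 14 (17.5%) were higher and 4 (5%) lower, with a median of 0.58. The shares over all genes were 8.09% and 13% in TR1, 9.37% and 10.8% in TR9, and 4.34% and 2.31% in TR9 against TR1, so the lower share in TR1 was near that of all genes. Among genes called higher in TR1 and in TR9, those with the largest mean log2 ratio over both were Slfn1, Slfn4 and Slfn2, of the Schlafen family, which is known for control of growth in blood cells, and the rank of Slfn1 rests on the FPKM floor of 0.01. Slfn4 had 3.30, 192 and 149 FPKM in control, TR1 and TR9. Slfn2 had 8.67, 87.3 and 33.2 FPKM, and Slfn1 had 0, 126 and 31.2 counts, which set against 3 counts is at least 41.4-fold higher for TR1 and at least 11.1-fold higher for TR9. On the lower side were Lgals9 (303, 31.6 and 71.8 FPKM), a galectin, Ifi30 (51.5, 3.66 and 11.4 FPKM), a thiol reductase of lysosomes, and Tgtp1 (33.2, 0 and 8.14 counts), a GTPase of the Iigp1 family. The TR1 ratio of Tgtp1 rests on the FPKM floor of 0.01, and TMM scaling ended its call in TR9.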

How the data were processed

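RNA-seq data of 3 libraries were analysed: control (lin- BM cells), TR1 and TR9 (GFP+ BM cells of leukemia mice), each pooling 3 mice. Groups were taken from the sample labels. The authors filtered the reads from an Illumina HiSeq and mapped them with BWA and Bowtie, and genes were quantified by RSEM. Software versions are not given in the sources used here, and the build, mm9, is named in the submitters' processing notes. The deposited expected counts are RSEM estimates without normalization, and the deposited FPKM scale them by gene length and library total.

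Genes were matched by NCBI Gene ID to symbols in RefSeq (GRCm38.p6), with 16698 of 16742 IDs matched and all 44 members found. Unlisted genes were set to 0. The members and the gene lists were chosen with earlier results of these data known. Any member could be named. From the other lists, at most the 3 largest changes per direction among genes called the same way in TR1 and TR9 were named, with Irf7, Irf8, the Ifnar and Ifngr chains, Jak1 and Tyk2. A few role groups within the 44 were set by hand.

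Rounded expected counts of 2 libraries were compared by a two-sided exact Poisson test, conditional on their sum (binomial test of scipy 1.17.1), and adjusted by Benjamini-Hochberg over every gene that either library lists. Log2 ratios used FPKM with a floor of 0.01, calls needed a log2 ratio of 1 or more in size at a false discovery rate of 0.001 or less, and 95% intervals were exact (Clopper-Pearson). A fold against 0 counts was set against 3 counts. With between 5129662 and 5571409 counts per library, genes with few counts have wide intervals, and intervals cover counting error only. TMM factors and an exact test came from edgeR 4.0.16 (R 4.3.3), the latter with an assumed variation of 0.2, and the other alternatives are listed in the closing section. A gene of the pathway lists is not reported here. Steps were tested on simulated data. Promoters were searched on both strands in RefSeq windows from 250 bases before to 50 bases after each start, in a later build than the counts. Scripts ran in Python 3.11.15 (pandas 2.3.3, numpy 2.4.6), and matplotlib 3.10.9 drew the plots.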

Additional observations from a re-analysis of the deposited data

Results flagged for a closer look

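The direct comparison of TR9 with TR1 singled out 12 members whose levels differed between the 2 libraries, by a test of their reads that has no replicate check. In TR9, 10 (22.7%) were higher and 2 (4.55%) lower, against 4.34% and 2.31% of 15706 genes. With TMM scaling, Ifit1, Usp18 and Trim21 were no longer called. The edgeR exact test with an assumed variation of 0.2 left 1 higher and 1 lower. The log2 ratio of TR9 against TR1 was 1.08 for Ifit1, 1.14 for Oasl2, 1.70 for Usp18, 1.29 for Ifi47, 1.36 for Zbp1, 1.14 for Gbp7, 1.14 for Irgm1, 1.13 for Trim21 and 1.63 for Pml. It was −1.12 for Ifitm1 and −4.16 for Ifitm6. Mx2, at 0 in TR1, had a lower bound of 3.11, set against 3 counts. Late granulocyte markers summed to 23192 FPKM in TR1 and 8957 in TR9, with 6 of the 10 called lower and 2 called higher in TR9 (Camp and Ngp, named after their values were seen), and their part in these differences was not tested.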

How the results depend on the processing

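No replicate could be left out, and no paired analysis was possible because each condition had 1 library. TMM and median-of-ratios scaling, a floor of 3 counts and a minimum of 1 FPKM kept each count of members within 1.5 times its value and each median in its direction. With TPM scaling, the median of TR1 against control became −0.057 in place of 0.17, and 9 members rather than 5 were lower in TR1. A pseudocount of 1 FPKM left 2 members lower in TR9 in place of 4, and a false discovery rate of 0.05 gave 8 lower in TR1. An absolute log2 ratio of at least 2 left 7 higher and 2 lower in TR1, 8 higher and 2 lower in TR9, and 1 higher and 1 lower in TR9 against TR1. The edgeR exact test with an assumed variation of 0.2 gave 9 higher and 2 lower in TR1, 8 higher and 0 lower in TR9, and 1 higher and 1 lower in TR9 against TR1. Shares over all genes were taken for the main and TMM settings only, so the other counts cannot be set against them. The causes were not tested. Members with few counts, such as Mx2, Ifi44, Ifit3 and Iigp1, are limited by depth.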
